A study of Mus musculus with 5 samples.

Results

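The 8 genes described here encode subunits of voltage-gated sodium channels, 5 pore-forming alpha subunits (Scn1a, Scn2a, Scn3a, Scn8a and Scn9a) and 3 auxiliary beta subunits (Scn2b, Scn3b and Scn4b). They were chosen by name from the 47729 Ensembl genes of the count table, and all 8 were found. Each of 5 libraries was made from RNA of 1 right hemisphere of the brain, taken at 5 months of age from male mice of the inbred strain C57BL/6, with no treatment or altered genotype named. All 5 samples belong to 1 group, so genes can be compared with each other within a brain and brains with each other, but no condition with another. The labels do not say that each sample is a separate animal, although they are called animals 1 to 5 here. The p-values therefore reflect how these libraries differ, and part of that may be technical.

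Voltage-gated sodium channels open when the membrane of a neuron depolarises and carry the inward current of the action potential. The alpha subunit is a single long chain that forms the pore, the voltage sensors and the inactivation gate. The beta subunits are short membrane proteins with an extracellular immunoglobulin domain that tune the gating of the pore and bind cell adhesion molecules. In the brain the channels are concentrated at the axon initial segment and the nodes of Ranvier.

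The alpha genes are close relatives. Over the longest annotated coding sequences (GENCODE M21, GRCm38), identity between pairs of alpha genes ran from 74.0% (Scn8a and Scn9a) to 84.1% (Scn2a and Scn3a). Long identical runs bear on the counts, because a read that lies inside one cannot be assigned to 1 gene. The longest identical run was 188 coding bases, between Scn1a and Scn2a, and the next was 184, between Scn3a and Scn9a. Counted over all annotated transcripts, words of 50 bases that recur in another gene made up 6.49% of Scn3a, 5.76% of Scn2a, 4.04% of Scn9a, 4.03% of Scn1a and 0.0374% of Scn8a. The share was 0.795% in Scn2b and 0% in Scn3b and Scn4b. How the authors' counting treated such reads is not given in the sources used here, so the split among Scn1a, Scn2a, Scn3a and Scn9a carries this uncertainty.

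Levels are given as RPKM, counts scaled to gene length and library total, recomputed from the deposited counts. Library depth ran from 13184234 to 15570064 counts. Neuronal markers were present in each library, with the summed level of a list of 10 (led by Snap25 and Eno2) between 1285 and 1375 RPKM. Markers of hindbrain regions differed between libraries. Gabra6, a gene of cerebellar granule cells, stood at 1.65 RPKM in animal 4 and at 0 to 0.030 elsewhere. The 4 brainstem and spinal cord markers that were tested had a mean log2 deviation of 0.98 in animal 4 and -0.77 in animal 5. Slc6a5 deviated most, at 2.55 and -1.79, followed by Glra1 at 0.83 and -0.94. Slc17a6 (0.23 and -0.25) and Nefh (0.33 and -0.11) deviated less. The part of these markers in the results below was not tested.

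**Figure D1:**
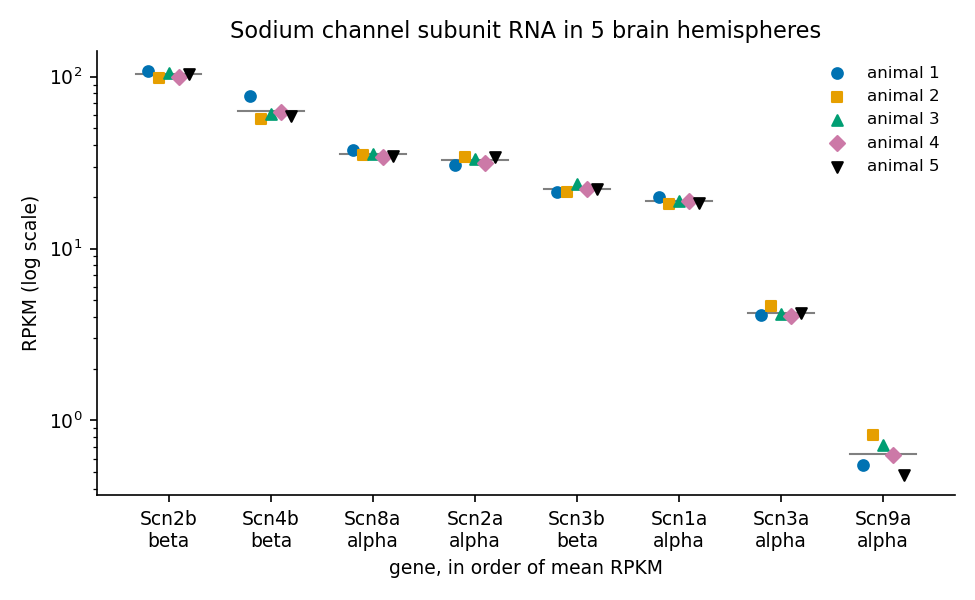
RPKM (log axis) of each sodium channel gene in each of the 5 animals, genes ordered by mean, with the mean as a grey line. The beta genes Scn2b and Scn4b lie highest, Scn3a and Scn9a lowest, and Scn4b in animal 1 stands above the other 4 animals.

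Scn8a (ENSMUSG00000023033, GRCm38 chromosome 15, 100869858 to 101045938), the alpha subunit known from nodes of Ranvier and mature axon initial segments, had the highest level of the alpha genes. It stood at 37.6, 35.2, 35.6, 34.3 and 34.7 RPKM in animals 1 to 5, with a mean of 35.5 ± 1.28 (SD, n = 5, here and below). The 5 values lie close together, with animal 1 highest. Scn2a (ENSMUSG00000075318, chromosome 2, 65620771 to 65767447), known from axon initial segments and unmyelinated axons of excitatory neurons, followed at 30.4, 34.0, 33.1, 31.5 and 34.3 RPKM (32.7 ± 1.64). Animal 1, highest for Scn8a, was lowest for Scn2a.

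The lowest Scn8a value (34.29 RPKM, animal 4) lay just above the highest Scn2a value (34.26 RPKM, animal 5), and these neighbours in the order were the least separated of the 28 pairs of members. Within each animal Scn8a exceeded Scn2a, by 1.09-fold on average, with a log2 ratio of Scn2a to Scn8a of -0.12 ± 0.11. The ratio ran from -0.30 in animal 1 to -0.018 in animal 5, so the mean difference is about as large as its spread.

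Scn1a (ENSMUSG00000064329, chromosome 2, 66270778 to 66440840), the alpha subunit that fast-spiking inhibitory neurons depend on and the main gene of Dravet syndrome in people, stood at 19.9, 18.1, 19.0, 18.9 and 18.4 RPKM (18.9 ± 0.692). It lay below Scn2a in 5 of 5 animals, by 1.73-fold (fold differences between genes are means of log2 ratios with 0.1 RPKM added). Pvalb, the parvalbumin gene of fast-spiking interneurons, ran from 40.0 to 62.3 RPKM over the same animals, a wider relative range than the 1.10-fold of Scn1a. Pvalb was the widest of a list of 10 inhibitory interneuron genes. On scaled counts their ranges ran from 1.05-fold to 1.57-fold (median 1.18-fold), against 1.12-fold for Scn1a. A link between these genes and Scn1a was not tested.

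Scn3a (ENSMUSG00000057182, chromosome 2, 65457118 to 65567627), best known as an alpha subunit of the embryonic brain, was low but well counted. Its levels were 4.10, 4.63, 4.16, 4.05 and 4.24 RPKM (4.24 ± 0.229), from 684 to 858 counts per library. It lay below Scn2a by 7.56-fold and below Scn1a by 4.38-fold, each in 5 of 5 animals.

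Scn9a (ENSMUSG00000075316, chromosome 2, 66480080 to 66634962), the alpha subunit known from pain-sensing peripheral neurons and also found in hypothalamic neurosecretory neurons, was the lowest of the 8 genes. Its levels were 0.550, 0.826, 0.722, 0.629 and 0.481 RPKM (0.642 ± 0.137), from 81 to 157 counts per library. Its coefficient of variation between animals was 21.3%, against 9.22% from counting alone at its mean of 117.6 counts. The antisense gene Gm13629 overlaps Scn9a on the opposite strand, shares 180 exonic bases with it and had 40, 54, 44, 41 and 31 counts. Because the strand setting of the counting is not given, reads from the overlapping part cannot be assigned with certainty.

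In all, Scn8a made up 38.6% ± 1.16 of the summed alpha RPKM, Scn2a 35.6% ± 1.68, Scn1a 20.6% ± 0.816, Scn3a 4.61% ± 0.221 and Scn9a 0.698% ± 0.146. The sum was lowest in animal 4 (89.4 RPKM) and highest in animal 2 (92.8 RPKM), a range of 1.04-fold. The Scn8a share was highest in animal 1 (40.6%, against 37.7% to 38.4% in the others), where the Scn2a share was lowest (32.9%, against 35.3% to 37.2%). Without animal 1 the mean Scn8a share was 38.1%. Scn8a also led by coding length, with a share of 45.0%, and with no length, with 44.8%.

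**Figure D2:**
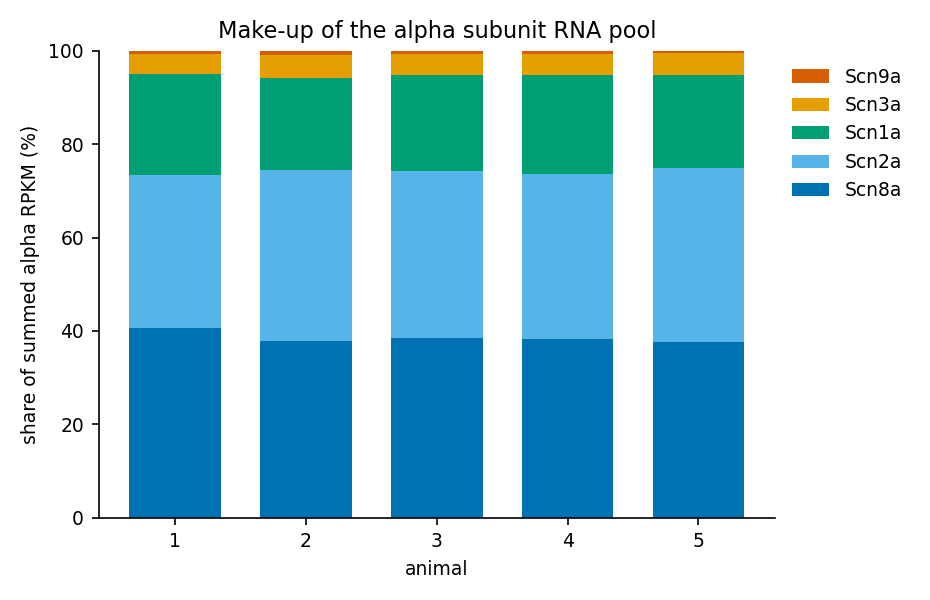
Share of each alpha gene in the summed alpha RPKM (%, stacked bars) in each of the 5 animals. Scn8a and Scn2a fill most of every bar, and Scn9a is a thin strip (0.698% on average).

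Scn2b (ENSMUSG00000070304, chromosome 9, 45117782 to 45130070), a beta subunit bound to the pore by a disulphide bridge, had the highest level of the 8 genes. It stood at 107.9, 98.8, 104.9, 100 and 104.1 RPKM (103 ± 3.72) and ranked 309th among the protein-coding genes of the table. Scn4b (ENSMUSG00000046480, chromosome 9, 45138395 to 45154152), the other disulphide-bound beta subunit, known for a high level in the striatum and for its part in resurgent current, followed at 77.6, 57.1, 60.4, 62.6 and 58.9 RPKM (63.3 ± 8.21). Animal 1 lay above the other 4, which did not exceed 62.6. Scn3b (ENSMUSG00000049281, chromosome 9, 40269217 to 40291618), which binds the pore without a covalent bond, stood at 21.4, 21.4, 23.6, 22.3 and 22.1 RPKM (22.2 ± 0.909). Scn2b exceeded Scn4b by 1.64-fold and Scn3b by 4.64-fold, and Scn4b exceeded Scn3b by 2.83-fold, each in 5 of 5 animals.

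The summed beta level was 2.05-fold the summed alpha level, at 189 ± 11.1 against 91.9 ± 1.4 RPKM (log2 ratio 1.04 ± 0.082, higher in 5 of 5 animals, exact permutation p = 0.063 over sign flips, two-sided, the smallest that 5 animals allow). The direction depended on gene length. In CPM, counts scaled to the library total with no length, it turned, with a summed beta of 906 ± 53.3 against an alpha of 1247 ± 20.1 (log2 ratio -0.46 ± 0.080).

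The order of mean levels was thus Scn2b, Scn4b, Scn8a, Scn2a, Scn3b, Scn1a, Scn3a and Scn9a. All 28 pairs of members kept 1 order in all 5 animals, among them the 7 pairs of neighbours. The exact permutation p over sign flips, two-sided, was 0.063 for each pair and stayed so after Benjamini-Hochberg adjustment over the 28 pairs, so none can pass 0.05. Among neighbours, Scn3b exceeded Scn1a by 1.17-fold (log2 ratio of Scn1a to Scn3b -0.23 ± 0.078), Scn2a exceeded Scn3b by 1.47-fold and Scn4b exceeded Scn8a by 1.77-fold. The gap was wider at the low end, where Scn3a exceeded Scn9a by 5.92-fold.

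Several of these orders depended on length. With no length, Scn8a led with 559 ± 20.2 CPM, and 4 pairs turned, each in 5 of 5 animals (Scn8a then exceeded Scn2b and Scn4b, Scn2a exceeded Scn4b, and Scn1a exceeded Scn3b). With the longest coding sequence as length, Scn3b moved above Scn8a and Scn2a, and no other pair turned. The coding sequences are 648 to 687 bases in the beta members and 5844 to 6030 in the alpha members, against gene lengths of 4562 to 5546 and 11146 to 15766 bases. The order among the alpha genes was the same on each of these scales.

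Scn3a, Scn2a, Scn1a and Scn9a lie on chromosome 2 in that order, followed 38.5 kb beyond Scn9a by Scn7a, a related gene of the family, at 0.787 ± 0.169 RPKM. Scn3a and Scn2a, separated by 53.1 kb and transcribed away from each other, differed 7.56-fold. Scn1a and Scn9a, separated by 39.2 kb on the same strand, differed 25.9-fold. On chromosome 9, Scn2b and Scn4b lie 8.32 kb apart on the same strand and were both high, and animal 1 was the highest for both, at 77.6 RPKM against 62.6 in the next animal for Scn4b and 107.9 against 104.9 for Scn2b.

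The spread of each gene between animals was compared with that of genes of like abundance, using the edgeR quasi-dispersion divided by its trend. None of the 8 members was more variable at an adjusted p of 0.05, against 0.305% of the 14770 genes tested, and none was less variable, against 0.0% of them. Without adjustment 2 members (Scn4b and Scn9a) were more variable, against 5.43% of all genes, and 0 were less variable, against 5.0%. With DESeq2 size factors, library totals or a prior that is not robust, 0 members were called, against 0.298%, 0.244% and 0.129% of all genes. With no filter on low counts Scn4b was called as more variable (0.881% of all genes) and 0 as less variable (0.0884%). Scn4b was also called without animal 4 (0.298%), and 0 members without animals 1, 2, 3 or 5 (0.235%, 0.203%, 0.176% and 0.121%). DESeq2 marked 1 member, Scn4b, as a dispersion outlier (0.684% of all genes). limma called 0 members in either direction (0.0339% of all genes as more variable and 0.0% as less variable), with 1 as more (4.65%) and 0 as less variable (4.92%) before adjustment. The median range between animals was 1.12-fold over the 8 members and 1.19-fold over all genes tested. The median log2 ratio to the trend was 0.098 over the members and -0.19 over all genes. For 6 members (Scn1a, Scn2a, Scn3a, Scn8a, Scn2b and Scn3b) the range was 1.10-fold to 1.13-fold, and each had an adjusted p for more variability of 0.995.

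**Figure D3:**
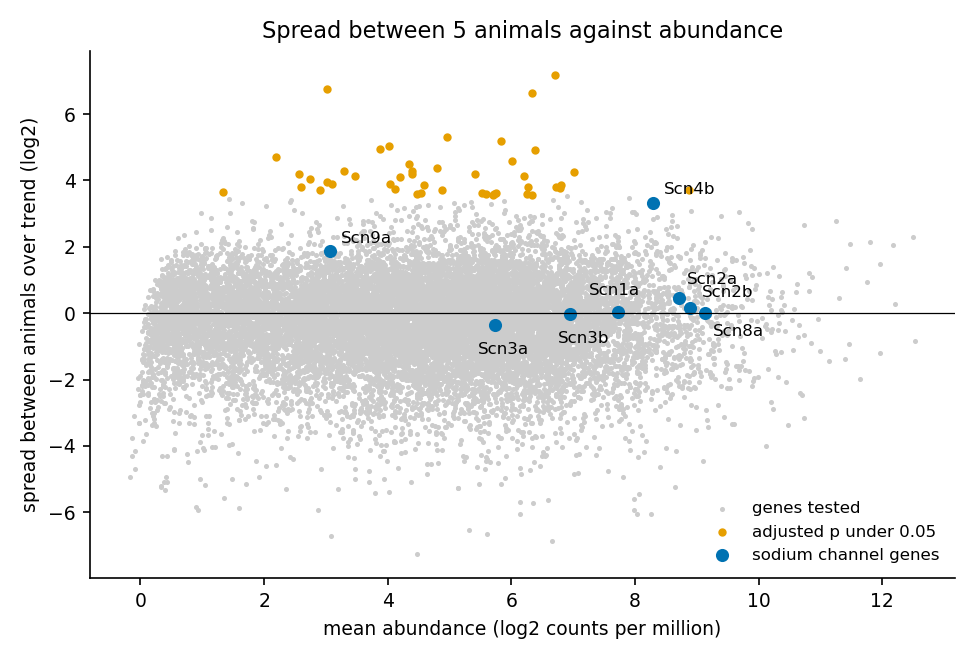
Spread between the 5 animals divided by the abundance trend (log2, edgeR) against mean abundance (log2 CPM) for 14770 genes, with the 45 genes past an adjusted p of 0.05 in orange and the sodium channel genes in blue. Scn4b (3.33) and Scn9a (1.87) lie highest of the sodium channel genes, and the other 6 lie between -0.36 and 0.45.

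Scn4b had the largest spread relative to its trend. Its values of 77.6 RPKM in animal 1 and 57.1 to 62.6 in the others gave a log2 ratio to the trend of 3.33 and the rank of 56th among all genes tested (edgeR unadjusted p = 0.000337, adjusted p = 0.0888). That misses the threshold. Without animal 1 the range was 1.10-fold in place of 1.36-fold and the adjusted p 0.990, so the spread rests on that 1 animal. Without animal 4 the adjusted p was 0.0327, and over the 10 alternatives with an adjusted p it ran from 2.64e-05 (no filter on low counts) to 0.990.

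Markers of striatal projection neurons, the cells in which Scn4b is known to be abundant, were high in the same animal. In animal 1 each of the 10 striatal genes exceeded its mean over the animals, and 8 of them peaked there. Their mean log2 deviation was 0.22 in animal 1 and -0.12, 0.018, -0.11 and -0.016 in animals 2 to 5, and their summed level was 454 RPKM in animal 1 and 367 to 402 in the others. Penk, the enkephalin precursor, stood at 145 ± 10.8 RPKM and Ppp1r1b, a regulator of dopamine signalling, at 88.7 ± 10.3. Adora2a, the adenosine receptor gene of this list and the only 1 of the 10 past the threshold (edgeR adjusted p = 0.0444, against 0.305% of all genes tested), stood at 24.4 RPKM in animal 1 and 15.6 to 17.9 in the others. None of the 10 was at 0 in any animal. The part of these cells in the spread of Scn4b was not tested. In bulk tissue, fewer cells of a type and less RNA per cell cannot be told apart.

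Scn9a had the largest range, 1.68-fold on scaled counts, with animals 2 and 3 high and animals 1 and 5 low. Its adjusted p was 0.812 (edgeR, log2 ratio to the trend 1.87), and 0.410 to 0.990 over 10 alternatives. Among tested genes with a mean of at least 5 CPM, the 3 with the nearest centred log2 profile over the 5 animals were taken. They were Gstm6 (root mean square difference 0.028), Il17rd (0.067) and Efcab1 (0.080). These were picked from many genes for the smallest difference over 5 values, so close matches were assured and nothing is read from them. For Gstm6 the lowest value was 2.36 RPKM (animal 5) and the highest 4.02 (animal 2). Scn7a, the next family gene on the chromosome, had 1.06 RPKM in animal 2, 0.652 and 0.651 in animals 1 and 5, and 0.758 and 0.814 in animals 3 and 4.

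A list of 10 hypothalamic genes, chosen after the values were seen, is given beside Scn9a. Of these 10, 9 were lowest in animal 5 and 6 were highest in animal 2. Their summed level was 114 RPKM in animal 2, 58.5 in animal 5 and 85.9 to 99.6 in the others, and 5 of the 10 passed the threshold (Oxt, Avp, Gabrq, Irs4 and Baiap3), against 0.305% of all genes tested. That count is partly fixed by the choice of the list, and nothing is read from it. None of them was at 0. Of the 7 long nuclear RNAs listed as a sign of library quality, 6 were highest in animal 2. Their mean log2 deviation was 0.18 in animal 2 against -0.10 to -0.023 in the others. Malat1, the most abundant of them, was highest in animal 5, at 145 RPKM against 144 in animal 2. The part of either list in the spread of Scn9a was not tested.

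**Figure D4:**
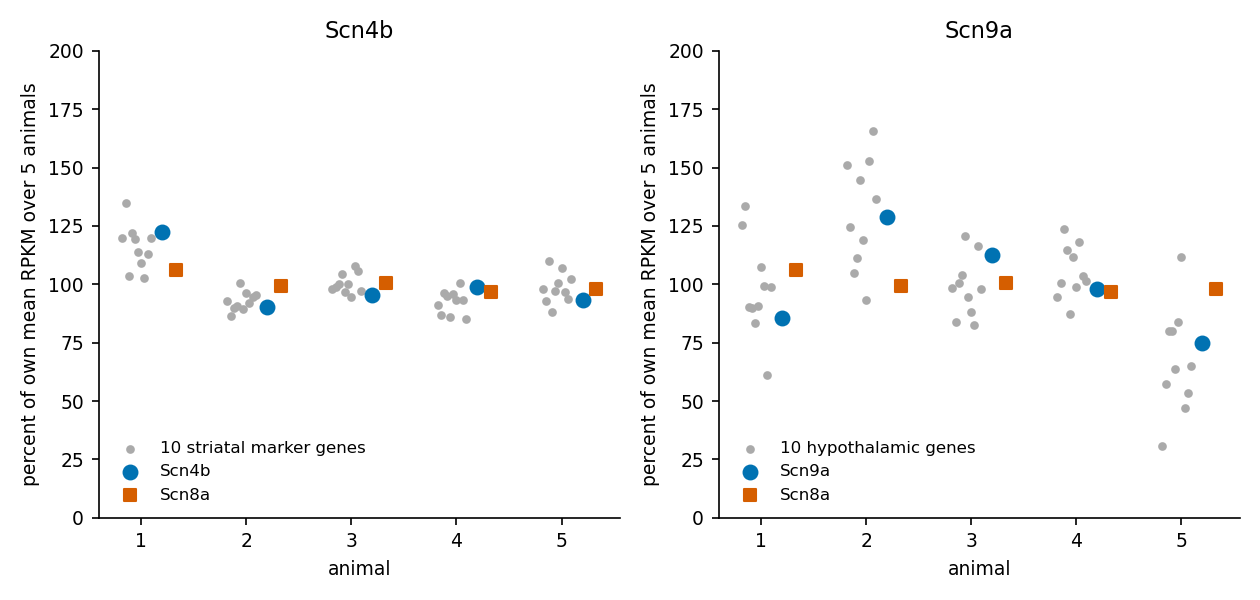
RPKM as a percent of each gene's own mean over the 5 animals, for Scn4b beside 10 striatal marker genes (left) and Scn9a beside 10 hypothalamic genes (right), with Scn8a in both panels for comparison. Scn4b and the striatal genes are high in animal 1, Scn9a and most hypothalamic genes are low in animal 5, and Scn8a lies close to its mean in all 5.

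Of the other genes of the family, Nalcn, a sodium leak channel that is not gated by voltage, stood at 21.8 ± 1.03. The peripheral alpha genes Scn10a and Scn11a had 3 to 10 and 3 to 7 counts per library, and Scn4a, the alpha subunit of skeletal muscle, had 0 or 1.

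The proteins that hold sodium channels in place were encoded by genes of middling to high level. None of the 16 partner genes of the axon initial segment and node was called in either direction (edgeR, against 0.305% of all genes tested as more and 0.0% as less variable). Without adjustment 0 of the 16 were more variable (5.43% of all genes) and 1, Kcnq3, was less variable (5.0%), a share near that of all genes. Their median range was 1.12-fold. The most abundant were Cntnap1, an adhesion protein of the paranode, at 61.1 ± 2.14 RPKM, Nrcam, an adhesion molecule of the initial segment, at 54.8 ± 3.0, and Cntn1, a contactin that binds beta subunits, at 53.0 ± 2.67. Ankyrin-G, the scaffold that anchors the channels, is encoded by Ank3, which stood at 21.7 ± 0.841 RPKM. Among the intracellular FGF homologous factors, which bind the tail of the alpha subunit, Fgf12 (44.1 ± 2.10) and Fgf13 (30.6 ± 0.923) lay above Fgf14 (9.11 ± 0.413) and Fgf11 (8.55 ± 0.467). Kcnq3, a potassium channel subunit that shares the same anchor, had a range of 1.02-fold on scaled counts at 16.7 ± 0.263 RPKM.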

How the data were processed

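Libraries were made with an mRNA kit, per the labels' protocols. CASAVA 1.7, STAR 2.4.1d and featureCounts 1.4.6-p4 with GRCm38 were used, per the submitters' processing notes. The deposited counts are whole numbers per gene. The deposited RPKM were made by the authors from these counts. Cycling through the 5 library totals from row to row reproduced 100% of 117232 nonzero values (within 0.0011 RPKM plus 0.0002 of the value). Each library's own total reproduced 25.0%. Gene length was solved from each gene's highest value, so that value matched in advance either way (28276 genes had a count). With the totals cycled, 80% of entries were divided by another library's total. RPKM were therefore recomputed with own totals and the length implied by both tables. The deposited RPKM served as an alternative. For the annotation release, strand setting and multiply mapped reads, the choice made is not given in the sources used here. Symbols and positions come from GENCODE M21 (47224 IDs matched).

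The count model was that of edgeR 4.0.16 under R 4.3.3 (filterByExpr, TMM, robust glmQLFit, intercept only). The quasi-dispersion over its trend was compared with an F distribution on 4 and 15.3 degrees of freedom by a one-sided test for each direction, adjusted by Benjamini-Hochberg over 14770 genes (threshold 0.05). The method was tested on simulated counts. Alternatives were other scalings, no filter, a prior that is not robust, DESeq2 1.42.0, limma 3.58.1 and leaving out each animal. Ratios used RPKM plus 0.1. Coding sequences were compared with Biopython 1.88. Precision at this depth covers counting error only, because PCR copies cannot be told from separate molecules.

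Members and lists were chosen with earlier results of these data known. Genes were named by rule (all members and family genes, partners that were called or among the 3 most abundant, and the 3 genes nearest to the widest-ranging member). Fgf11 to Fgf14, Ank3, Kcnq3, Pvalb, Gabra6 and the hypothalamic genes were named after their values were seen. Other markers of the rule are left out for space, and some items are not reported here.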

Additional observations from a re-analysis of the deposited data

Results flagged for a closer look

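Among the 30 sets of 5 values checked, 4 had a highest or lowest animal set apart from the rest, by a gap to its nearest neighbour of more than 0.71 of the whole range. Chance alone flags about 1 in 20 such sets, and the sets are not independent. Scn4b was high in animal 1 (77.6 RPKM, gap 0.73 of the range). The Scn8a share of the summed alpha RPKM was high in the same animal (40.6%, gap 0.732). The summed alpha RPKM was low in animal 4 (89.4 against 92.1 to 92.8, gap 0.795), although its whole range was 1.04-fold. Scn4a was listed at 0 in animal 2 and had a single count in each of the others (gap 0.847), which is too few to compare.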

How the results depend on the processing

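The number of members more variable than the trend was 0 in the main test and 1 (Scn4b) with no filter on low counts, 1 as a DESeq2 dispersion outlier and 0 to 1 without any 1 animal (1 without animal 4). It was 0 with the other scalings, the prior that is not robust and limma, and the number less variable was 0 in all 10 alternatives. Within each alternative all 28 pairs kept 1 order across the animals, except with the deposited RPKM, where 27 did. Leaving out an animal or changing the constant added to RPKM could not alter this, because every pair already held in all animals. The order itself turned for 4 pairs with no length and for 2 pairs with coding length. The log2 ratio of summed beta to alpha turned to -0.46 with no length, stayed between 1.005 and 1.06 without any 1 animal, was 1.02 and 1.03 with annotated exon length and deposited RPKM, and reached 2.72 with coding length, an alternative chosen after the data were seen. The Scn8a share of the alpha sum was 44.8% with no length and 45.0% with coding length, 38.6% with either other source of RPKM and 38.1% to 38.8% without any 1 animal. In the deposited RPKM the range between animals was 2.03-fold for Scn9a and 1.38-fold for Scn8a, against 1.72-fold and 1.10-fold when recomputed. Depth limits Scn9a, whose counting error alone is 9.22%.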
